A study of Mus musculus with 8 samples.

Results

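Retinoic acid (RA) is made from vitamin A in 2 oxidation steps, is carried in the cytoplasm by small binding proteins and is removed by hydroxylation. The genes described here encode 9 proteins of this route: Rdh10, Dhrs3, Aldh1a2 and Aldh1a3 for synthesis, Stra6 for uptake of the precursor, Crabp1 and Crabp2 for binding, and Cyp26a1 and Cyp26b1 for breakdown. The members were every probe, other than control probes, that the array annotation names after one of these genes. Each gene had a single probe, which gave 9 probes of 55681 on the array and 9 genes of 36406. The rule that picks the probes goes by name and uses no measured value, but the genes themselves were chosen with earlier results of these data known.

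The study compared self-renewing with differentiating mouse embryonic stem (ES) cells of the line E14Tg2A.4. Untreated cells were set against cells given 1 µM all-trans RA for 72 h, and 4 biological replicates of each condition were hybridized to 1-colour Agilent arrays, in which the fluorescence bound to a spot measures a transcript. All 8 arrays are of this line, and no genetic change is named for it in the labels. Per the study's methods RA was added in medium without leukemia inhibitory factor, the cytokine that holds ES cells in self-renewal, and where the untreated cells were grown with this factor its withdrawal and the addition of RA cannot be told apart.

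Retinol, the transport form of vitamin A, enters cells from its carrier in blood through the receptor STRA6. RDH10 oxidizes retinol to retinal, DHRS3 reduces retinal back to retinol, and the ALDH1A enzymes oxidize retinal to RA in a step that cannot be reversed. CRABP1 and CRABP2 bind RA in the cytoplasm, and CRABP2 hands it to the RA receptors in the nucleus, while the CYP26 enzymes hydroxylate RA for removal. In the embryo the balance of synthesis and breakdown sets where RA acts, and Cyp26a1 and Rarb are textbook target genes of RA.

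All values below are log2 intensities relative to the 75th percentile of the same array, so that 0 is the brightness of the spot at that percentile, and they compare arrays for a probe, not probes with each other. Between 33629 and 37175 of the 59305 spots other than controls were well above background per untreated array and between 35034 and 35780 per RA-treated array. No spot was saturated. Untreated cells carried the markers of ES cells, with a mean over 8 of them from 5.26 to 5.66 per array. After RA all 8 were called lower and their mean was 0.52 to 2.38. Of the markers of other cell types, 8 of 8 for primitive and parietal endoderm, 4 of 8 for mesoderm and fibroblast-like cells, 3 of 4 for trophoblast and 1 of 6 for neural cells were called higher, and 1 neural marker was called lower. The ES cell and endoderm lists, and in part the mesoderm and trophoblast lists, moved with every RA difference given here, and their part in it was not tested. In bulk RNA, fewer cells of a type and less RNA per cell cannot be told apart.

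Of the 9 retinoid genes, 7 were called higher after RA in the limma test, which required an adjusted p under 0.05 and a fold change above 1.5. The share over all genes of the array was 13.9%. None of the 9 was called lower, against 22.1% of all genes, and none had a lower mean at an unadjusted limma p under 0.05. For 8 of the 9 every RA-treated array lay above every untreated array, which held for 15.2% of all genes, while the opposite order held for 0 of the 9 and 25.2% of all genes. As the genes were chosen with earlier results known, these shares describe the list only. The median log2 fold change of the 9 genes was 3.67. That of all genes was -0.28, and under quantile normalization it was -0.0043. Relative to the median of all genes, the changes of the 9 genes ran from 2.10 for Aldh1a3 to 6.37 for Cyp26a1.

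**Figure D1:**
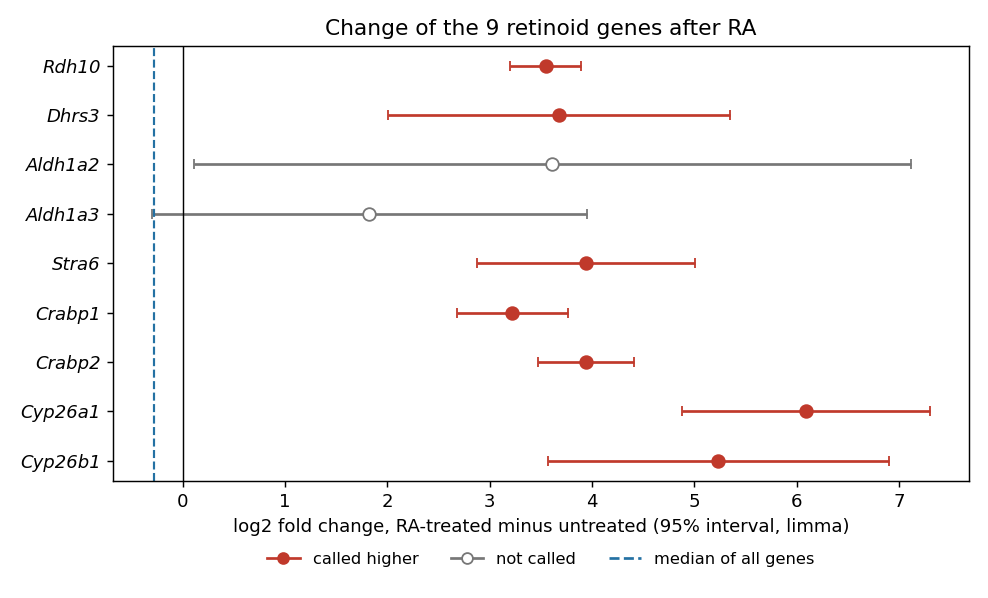
Log2 fold change of each of the 9 retinoid genes after RA (x axis, RA-treated minus untreated, 4 arrays each), with the unadjusted 95% interval from limma. The 7 filled red points were called higher, the open points of Aldh1a2 and Aldh1a3 were not called, and the dashed line marks the median of all genes at -0.28. All 9 points lie to the right of it.

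The first step of RA synthesis was represented by Rdh10, the retinol dehydrogenase that forms retinal. Its probe (NM_133832, mm9 chr1:16122062-16122121, plus strand) read -2.08, -1.78, -2.00 and -2.17 on untreated arrays 1 to 4 and 1.69, 1.66, 1.32 and 1.49 on RA-treated arrays 1 to 4. The nearest arrays of the conditions lay 3.1 apart and the 4 RA-treated arrays read nearly alike. Rdh10 was thus 11.7-fold higher after RA (95% interval 9.19 to 14.9), with a log2 fold change of 3.55 (SE 0.15, limma adjusted p = 2.17e-06).

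Dhrs3, the reductase that turns retinal back into retinol, rose by a similar mean amount but unevenly. Its probe (NM_011303, mm9 chr4:144517485-144517544, plus strand) read -0.96, -0.84, -2.23 and -0.88 in untreated cells and 1.40, 0.81, 4.26 and 3.32 after RA. The conditions did not overlap, and RA-treated arrays 3 and 4 stood far above arrays 1 and 2, with a 10.9-fold range among the 4. The change was 12.8-fold (95% interval 4.01 to 40.6, limma adjusted p = 0.00398). Without RA-treated replicate 3 the log2 fold change was 3.07 in place of 3.67 (adjusted p = 0.00594).

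Aldh1a2, the retinal dehydrogenase that makes most of the RA of the early embryo, was not called. Its probe (NM_009022, mm9 chr9:71143931-71143990, plus strand) read -0.88, -7.80, -1.18 and -1.22 in untreated cells and -0.26, -0.75, 2.21 and 2.17 after RA. The lowest RA-treated array lay only 0.13 above the highest untreated array, and RA-treated arrays 3 and 4 were again the high ones. On untreated array 2 the spot was not well above background, and 20 of 23 measured spots within 2 rows and 4 columns of it differed from the other untreated arrays by more than 2 on the log2 scale, with a median shift of -5.01. No such shift surrounded the spots of the other members, where at most 1 neighbour went past that limit on any array. With all arrays the log2 fold change was 3.61 (SE 1.54, limma adjusted p = 0.0979). Without untreated replicate 2 it was 1.93 (adjusted p = 0.0880), and without untreated replicate 1 it was 4.24 (adjusted p = 0.0939). The call changed with the processing: with normexp background correction the log2 fold change was 2.60 (adjusted p = 0.0144), and with the replicate number as a block the adjusted p was 0.0252.

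Aldh1a3, a second enzyme for the same step, was not called either. Its probe (NM_053080, mm9 chr7:73535785-73535844, minus strand) read -4.46, -4.77, -4.08 and -4.96 in untreated cells and -1.44, -0.33, -4.36 and -4.84 after RA. It was high on RA-treated arrays 1 and 2 and within the untreated range on arrays 3 and 4, which is the reverse of the order for Dhrs3 and Aldh1a2. The RA-treated arrays thus spanned a 22.7-fold range, and the log2 fold change of 1.83 (SE 0.93) had an unadjusted 95% interval from -0.30 to 3.95 and a limma adjusted p of 0.161. Leaving out RA-treated replicate 2 gave 1.02 and leaving out RA-treated replicate 4 gave 2.52, and neither passed the test (adjusted p = 0.285 and 0.0500).

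**Figure D2:**
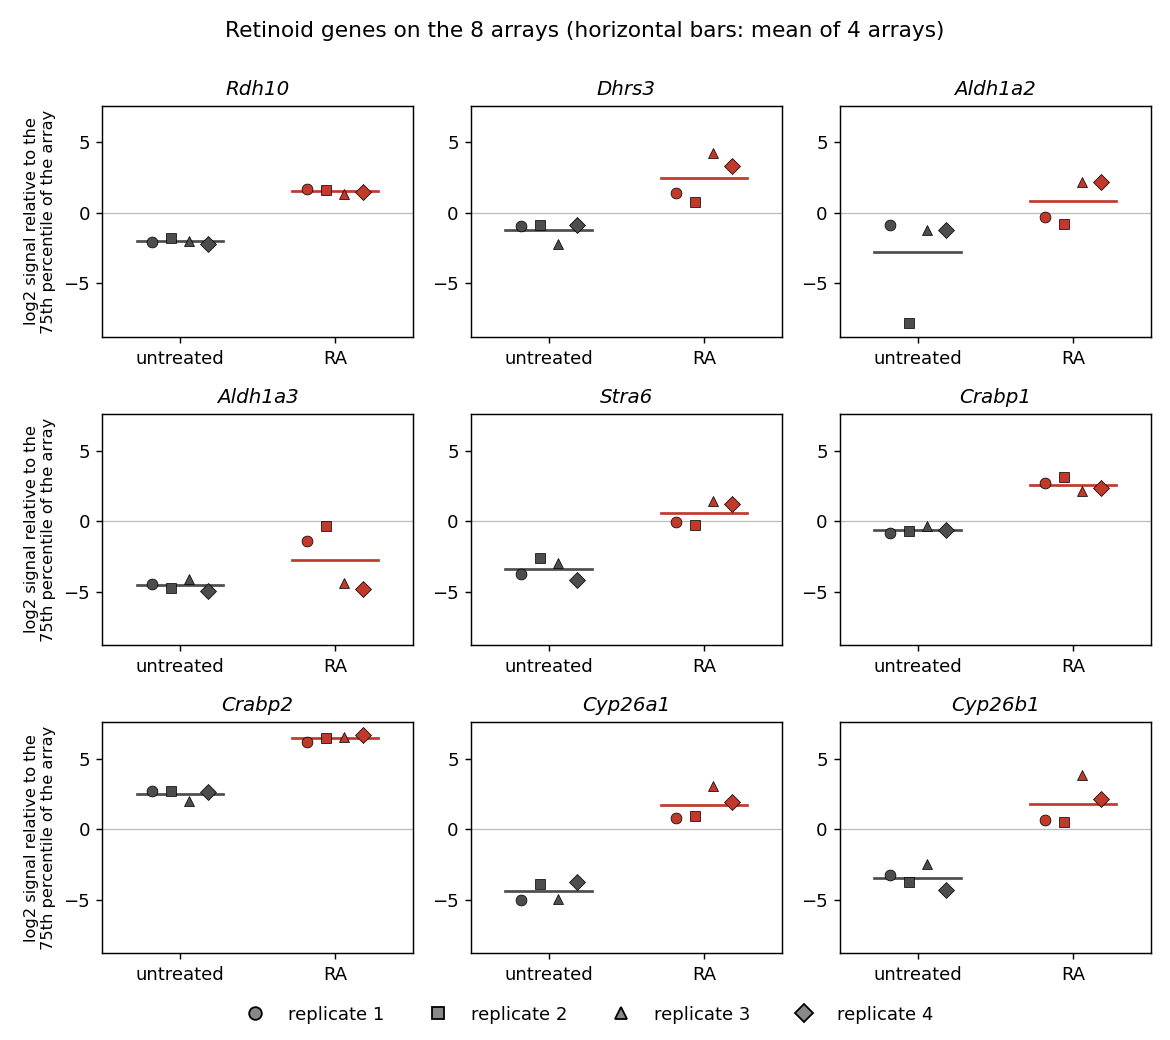
Log2 signal relative to the 75th percentile of the array (y axis) for the 9 retinoid genes in untreated (grey) and RA-treated (red) cells, where each point is an array, its shape the replicate number, and each bar the mean of 4 arrays. For 8 genes all red points lie above all grey points, for Aldh1a3 they overlap, and the low grey square of Aldh1a2 is untreated replicate 2 at -7.80.

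Stra6, the membrane receptor for retinol uptake, rose on all RA-treated arrays. Its probe (NM_001162476, mm9 chr9:58001701-58001760, plus strand) read -3.74, -2.65, -2.97 and -4.16 in untreated cells and -0.08, -0.25, 1.40 and 1.17 after RA. The conditions were 2.40 apart at their nearest arrays, and RA-treated arrays 3 and 4 were the high ones. The change was 15.3-fold (95% interval 7.34 to 32.1, limma adjusted p = 0.000222). Its log2 fold change of 3.94 was 3.09 with normexp and 3.20 in the authors' values.

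The transcripts of both RA-binding proteins rose. Crabp1 (NM_013496, mm9 chr9:54616192-54616251, plus strand) read -0.88, -0.74, -0.34 and -0.62 in untreated cells and 2.73, 3.12, 2.11 and 2.34 after RA, so that the conditions stayed 2.45 apart. The change was 9.31-fold (95% interval 6.40 to 13.6, limma adjusted p = 1.89e-05). Among its RA-treated arrays 1 and 2 were the higher ones, within a 2.02-fold range.

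Crabp2 (NM_007759, mm9 chr3:87757207-87757266, plus strand) read 2.69, 2.70, 1.97 and 2.65 in untreated cells and 6.16, 6.43, 6.55 and 6.64 after RA. Its probe was already far above the 75th percentile before treatment and rose by a further 15.4-fold (95% interval 11.1 to 21.3, limma adjusted p = 4.29e-06). The 4 RA-treated arrays lay within a 1.40-fold range, the narrowest of the 9 genes after that of Rdh10 at 1.29-fold.

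The enzymes that break RA down had the largest mean changes of the 9 genes. Cyp26a1 (NM_007811, mm9 chr19:37775566-37775625, plus strand) read -5.04, -3.86, -4.93 and -3.76 in untreated cells, where it was well above background on 3 of 4 arrays, and 0.82, 0.94, 3.08 and 1.92 after RA. The nearest arrays of the conditions were 4.58 apart, the widest gap of the 9 genes. The log2 fold change was 6.09 (SE 0.53, limma adjusted p = 4.23e-05), and the fold change of 68.0 had a 95% interval from 29.4 to 157.3. Its size depends on the background correction: with normexp the fold change was 25.6 (adjusted p = 5.83e-07).

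Cyp26b1, the related hydroxylase (NM_175475, mm9 chr6:84521952-84522011, minus strand), read -3.28, -3.73, -2.48 and -4.28 in untreated cells and 0.65, 0.49, 3.85 and 2.17 after RA. No array of a condition overlapped with the other condition, and RA-treated array 3 was the highest for both Cyp26 genes. The change was 37.6-fold (95% interval 11.9 to 119.3, limma adjusted p = 0.000556). The log2 fold change of 5.23 was 4.55 without RA-treated replicate 3 (adjusted p = 0.000418) and 4.32 with normexp (adjusted p = 3.21e-05).

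RA acts through receptor pairs that bind direct repeats of short DNA motifs, so the start regions of the members were searched for them. RefSeq windows of GRCm38.p6, from 250 bases before to 50 after each start, matched 6 of the 9 genes (11 windows), and Rdh10, Aldh1a3 and Crabp2 were not searched here. A direct repeat of AGGTCA or AGTTCA or GGGTCA or GGTTCA with 5 bases between, on either strand, was in 32 of 32851 windows (0.0974%). Among the members it was found for Cyp26a1 alone, on the reverse strand from base -32 to -16. Repeats with 1 or 2 bases between, which 0.222% and 0.268% of all windows hold, were in no member window. A single motif, which 43.7% of windows hold, was in the windows of Cyp26a1 and Stra6, for Stra6 at bases 15 to 20 after the start. The stretch before the start of Cyp26a1 (GRCm38.p6 chr19:37697558-37697807, plus strand) is shown for the repeat, whose 2 motifs are in capitals. That of Cyp26b1 (chr6:84593909-84594060, minus strand) is shown beside it as the related enzyme whose window held no match, up to the 5′ end of its RefSeq gene model.
Cyp26a1: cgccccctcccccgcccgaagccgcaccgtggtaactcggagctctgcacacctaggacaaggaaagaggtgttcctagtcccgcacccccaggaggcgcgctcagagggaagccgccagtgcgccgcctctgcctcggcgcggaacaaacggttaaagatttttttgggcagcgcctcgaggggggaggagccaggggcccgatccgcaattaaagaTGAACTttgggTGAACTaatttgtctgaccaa
Cyp26b1: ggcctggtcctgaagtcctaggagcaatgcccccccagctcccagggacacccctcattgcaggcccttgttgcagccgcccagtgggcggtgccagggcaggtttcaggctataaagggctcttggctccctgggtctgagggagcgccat
A match of letters is a description and not a binding site, and binding was not measured here.

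Related members were compared by the difference of their log2 values on each array, in which a shift of a whole array cancels. In 4 pairs compared by an exact two-sided permutation test over 70 splits of the 8 arrays, 0 passed, and 0 had an unadjusted p under 0.05. The smallest p of this test is 0.0286, and a single pair at it would have an adjusted p of 0.114, so no pair could pass alone. Cyp26a1 rose by 0.86 more than Cyp26b1 on the log2 scale (95% interval -0.96 to 2.67, exact permutation p = 0.343, adjusted p = 0.648 over the 4 pairs). Crabp1 changed by 0.72 less than Crabp2, as a log2 difference of -0.72 (95% interval -1.72 to 0.28, exact permutation p = 0.20, adjusted p = 0.648). The difference between Rdh10 and Dhrs3 was -0.13 (95% interval -2.46 to 2.21, exact permutation p = 0.914), and it turned sign when untreated replicate 3 (0.21), RA-treated replicate 3 (0.55) or RA-treated replicate 4 (0.18) was left out. That between Aldh1a2 and Aldh1a3 was 1.78 with an interval from -4.29 to 7.86 (exact permutation p = 0.486, adjusted p = 0.648), and it ran from 0.18 without untreated replicate 2 to 3.12 without RA-treated replicate 2. With same-numbered arrays paired, an alternative added after seeing the data, 0 of the 4 pairs passed an exact sign-flip test, whose smallest possible p with 4 pairs of arrays is 0.125. All 4 intervals, taken from the SD pooled over both conditions, include 0 and are too wide to show that the genes of a pair changed alike.

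The RA-treated arrays differed from each other more for these genes than for most. The median SD over the 4 RA-treated arrays was 1.05 for the 9 genes and 0.19 for the 20404 genes well above background on all 8 arrays, and 6 of the 9 were above the 90th percentile of these genes (0.48). The exceptions were Crabp1 (SD 0.45), Crabp2 (0.21) and Rdh10 (0.17). In untreated cells the median SD was 0.67 for the 9 genes and 0.27 for the others. Aldh1a2, Cyp26b1, Stra6, Cyp26a1 and Dhrs3 were above the 90th percentile there too, so a wide spread was not particular to RA-treated cells. Aldh1a2 and Cyp26a1 were not well above background on all 8 arrays, and the reference genes were not matched for brightness.

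The direction of these differences was shared within a set of genes. For Dhrs3, Aldh1a2, Stra6, Cyp26a1, Cyp26b1 and, within a narrow range, Crabp2, RA-treated arrays 3 and 4 both lay above arrays 1 and 2. Aldh1a3, Crabp1 and, within a narrow range, Rdh10 had the reverse order. The share of all genes with either order was not determined, so neither order can be called particular to these genes. RA-treated arrays 1 and 4 shared a slide and arrays 2 and 3 the other. The part of the slide or of any other batch in the order of the arrays was not tested. Over the 20404 genes the median absolute log2 difference was 0.18 between RA-treated arrays 1 and 2, 0.17 between 3 and 4, and 0.18 to 0.24 for the remaining pairs.

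Marker levels varied across the same arrays. The mean of the 8 ES cell markers was 1.33, 2.38, 0.97 and 0.52 on RA-treated arrays 1 to 4, and that of the 4 trophoblast markers was -1.04, -0.67, -2.20 and -2.44. That of the 6 neural markers was -2.06, -1.79, -1.16 and -1.19, but Neurog2 carried most of this difference and without it, a choice made after seeing the data, the mean was -0.90, -0.66, -0.58 and -0.55, while that of the 8 mesoderm and fibroblast-like markers 0.87, 0.74, -0.06 and 0.39. The mean of the 8 endoderm markers, from 1.63 to 1.97, did not separate arrays 3 and 4 from the others. The means of ES cell, trophoblast and mesoderm markers were thus lower on the arrays with the higher Cyp26, Dhrs3, Stra6 and Aldh1a2 signals, and the part of this in those signals was not tested. Single markers, looked at after their values were seen, did not all follow the mean of their list. Klf4, Zfp42, Elf5, T, Kdr, Col3a1 and Twist1 did not have arrays 3 and 4 both below arrays 1 and 2.

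**Figure D3:**
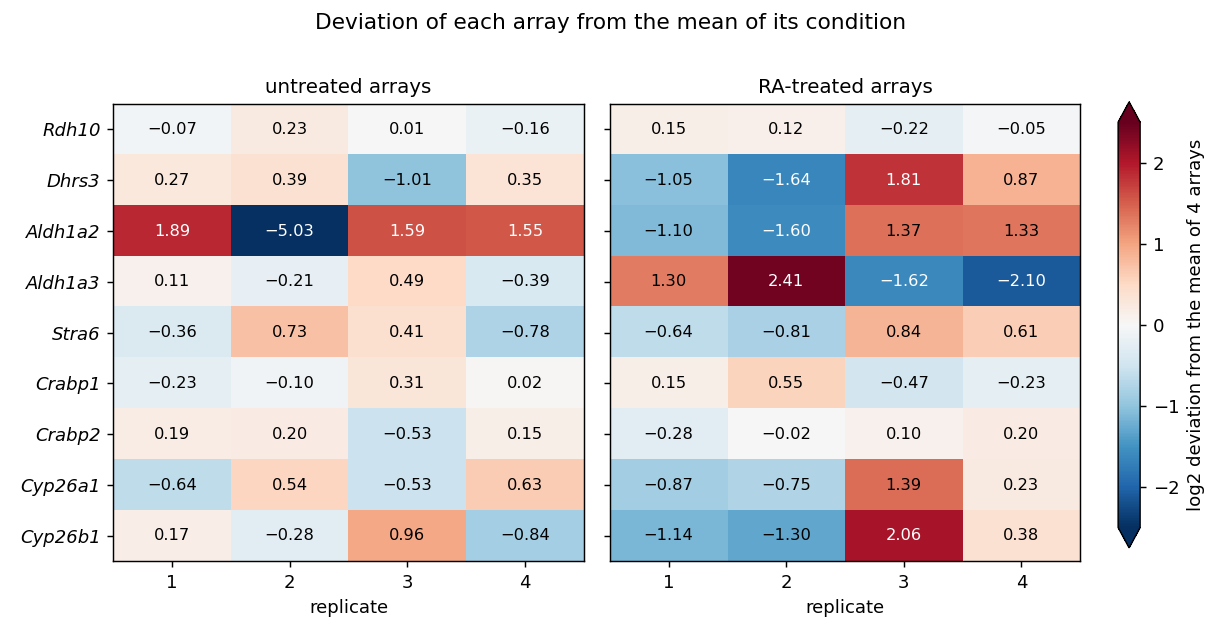
Log2 deviation of each array from the mean of its condition for the 9 retinoid genes, with untreated replicates 1 to 4 on the left and RA-treated replicates 1 to 4 on the right, coloured from blue (below the mean) to red (above it) and printed in each cell. On the RA-treated side Dhrs3, Aldh1a2, Stra6, Cyp26a1 and Cyp26b1 are below their mean on arrays 1 and 2 and above it on arrays 3 and 4, Aldh1a3 and Crabp1 are the reverse, and Rdh10 and Crabp2 vary little.

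With the slide as a block the same 7 genes were called, with limma adjusted p from 9.83e-06 for Rdh10 to 0.00634 for Dhrs3. Each slide held 2 arrays of each condition, and within slides 1 and 2 the log2 fold change was 3.95 and 3.39 for Dhrs3, 4.29 and 6.18 for Cyp26b1, 6.36 and 5.82 for Cyp26a1, 3.90 and 3.98 for Stra6, 1.98 and 5.23 for Aldh1a2 (1.95 on slide 2 without untreated array 2, added after seeing the data), and 1.13 and 2.52 for Aldh1a3. For Rdh10 it was 3.63 and 3.46, for Crabp1 3.14 and 3.30, and for Crabp2 4.07 and 3.81.

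Beyond these 9, 42 further genes of retinoid metabolism and signalling were on the array, and they moved in both directions. Of the 42, 12 were called higher and 11 lower, against 13.9% and 22.1% of all genes, and their median log2 fold change was -0.16. Among 26 genes of synthesis and storage 6 were called higher and 6 lower, among 9 of binding and transport 5 higher and 2 lower, and among 6 receptors 1 higher and 3 lower. For 8 of the 42 no array was well above background, among them Rpe65 and Bcmo1 of the called synthesis and storage genes, which were named after their values were seen and whose change cannot be sized. With only probes well above background on all 4 arrays of a condition, 31 of the 42 were left, with 10 called higher and 8 lower.

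**Figure D4:**
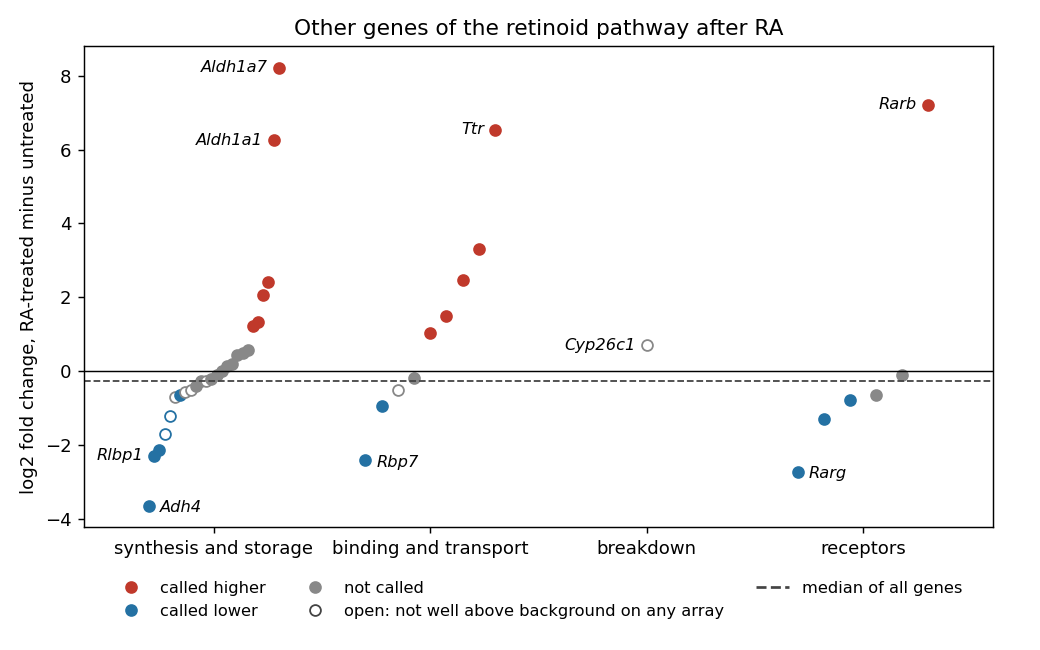
Log2 fold change after RA (y axis) of 42 further retinoid genes, grouped by role along the x axis and placed from low to high within a role. Red points were called higher (12), blue points lower (11) and grey points neither, open points were not well above background on any array, and the dashed line is the median of all genes at -0.28.

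Among the synthesis genes the largest increases were those of Aldh1a1 and Aldh1a7. Aldh1a1, which also forms RA from retinal, read -5.09, -4.78, -2.97 and -4.92 in untreated cells and 1.00, 0.25, 2.84 and 3.15 after RA. Its log2 fold change was 6.25 (SE 0.72, limma adjusted p = 0.000189), or 4.80 with normexp and 4.95 in the authors' values, and RA-treated arrays 3 and 4 were the high ones, as for Aldh1a2. Its close relative Aldh1a7 read -6.24, -7.61, -4.29 and -6.05 in untreated cells, with 1 of 4 arrays well above background, and 1.43, 0.73, 3.02 and 3.48 after RA. The log2 fold change was 8.21 (limma adjusted p = 6.86e-05), and against so dim an untreated signal its size is uncertain, with 5.65 under normexp and 5.79 in the authors' values. These genes are neighbours of very similar sequence, so either probe may report both transcripts. Adh4, an alcohol dehydrogenase that can oxidize retinol, fell by 3.65 on the log2 scale, from -1.41 ± 0.14 to -5.06 ± 0.26 (SD, n = 4, limma adjusted p = 2.64e-06), and by 2.26 with normexp and 2.10 in the authors' values. The alcohol dehydrogenases of the list did not move together: of the others, named after their values were seen, Adh1 was called higher (log2 fold change 2.42, limma adjusted p = 0.00328), as was Adh7, which was not well above background on any untreated array, and Adh5 was not called. Rlbp1, which binds retinal and retinol in the eye, fell by 2.29, from -0.07 ± 0.34 to -2.36 ± 0.45 (SD, n = 4, limma adjusted p = 0.000173).

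Carriers of retinol moved both ways. Ttr, which carries the retinol-binding protein in blood and is also a product of visceral endoderm, was not well above background on any untreated array and on all 4 after RA. On the processed signal it was at least 43.1-fold higher after RA (limma adjusted p = 8.39e-06 for the measured means of -6.76 and -0.22), where the untreated level was set, on each array, at the dimmest signal still counted as well above background (or at the signal of Ttr if brighter). This size depends on the background correction: the log2 fold change was 3.48 with normexp, 3.59 with normexp and quantile normalization and 3.57 in the authors' values, all below the bound. Rbp7, a cellular retinol-binding protein, fell by 2.43, from 0.30 ± 0.30 to -2.13 ± 0.59 (SD, n = 4, limma adjusted p = 0.000264).

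Cyp26c1, the remaining RA hydroxylase of the family, was not well above background on any of the 8 arrays, so no change can be given for it. Its signal was -7.69 to -7.15 in untreated cells and -7.77 to -5.50 after RA. The rise among the breakdown enzymes was therefore measured for Cyp26a1 and Cyp26b1 only.

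Of the RA receptors, which switch their target genes when RA binds, Rarb rose and Rarg fell. Rarb read -5.20, -4.61, -4.98 and -4.66 in untreated cells and 2.05, 1.26, 3.24 and 2.85 after RA, with arrays 3 and 4 again above 1 and 2. Its log2 fold change was 7.21 (SE 0.40, limma adjusted p = 5.31e-06) and 5.67 with normexp. Another probe, not well above background on any untreated array, was also called higher, and the remaining probe was not well above background on any array. Rarg fell from 5.39 ± 0.20 to 2.66 ± 0.21 (SD, n = 4), which was a log2 change of -2.73 (limma adjusted p = 7.87e-06). For Rxra and Rxrg, looked at after their values were seen, the probes disagreed. The brighter Rxra probe gave -1.30 and the other 0.79, both called, and the brighter Rxrg probe gave -0.12 (not called) and the other -2.12 (called lower).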

How the data were processed

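The arrays were 4 untreated and 4 RA-treated, grouped by the labels; no array was left out. The authors deposited, per array, Agilent Feature Extraction (version 10.7.3.1) output: a background-corrected and detrended intensity per spot, not normalized between arrays, with flags. A table of log2 values, with the same median (6.76) on every array, was deposited too; its background correction and normalization are not given in the sources used here.

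Values analysed here were log2 processed intensities minus each array's 75th percentile (R version 4.3.3); outlier spots (124 to 145 per array) were dropped, and spots of a probe were averaged. RA-treated and untreated arrays were compared in limma (version 3.58.1, lmFit, eBayes), with Benjamini-Hochberg adjustment over all 55681 probes and no filter on dim probes. A gene was represented by its brightest probe. The steps were tested on simulated data. The number of arrays limits the precision.

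The members and gene lists were chosen with earlier results of these data known. Of the further retinoid genes, those called were named (at most 4 in each direction, by size, among genes well above background on all 4 arrays of a condition), with Cyp26c1, Rarb and Aldh1a1 in any case; 1 further gene of that rule is not reported here. Names follow the array annotation (Bcmo1 and 1300002K09Rik stand for Bco1 and Stra6l), positions are on mm9, and 9 of 9 member accessions matched their symbol in RefSeq.

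Replicate numbers come from the labels. Over 27515 probes, deviations of same-numbered arrays from their condition means correlated at 0.186, 0.189, 0.104 and 0.151, which meets the limit set here for paired numbers (every correlation over 0.1). The highest correlation of untreated arrays 1 to 4 with an RA-treated array of another number was 0.142, 0.037, 0.086 and 0.130, so this is weak evidence of pairing. The methods name no pairing, so the tests in the text are unpaired, and the replicate block is an alternative. Alternatives were quantile normalization, median centring, normexp (offset 50) alone and with quantile normalization, the authors' log2 values, a filter on dim probes, the slide and the replicate number as blocks, the least variable probe, a 2-fold limit, limma's treat and leaving out each array.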

Additional observations from a re-analysis of the deposited data

Results flagged for a closer look

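In 8 of 36 sets of 4 arrays (18 named genes in 2 conditions), 1 array stood apart from the other 3 by Dixon's ratio at the 95% level, where chance gives about 1.8. Of the members these were Aldh1a2 on untreated array 2 (-7.80 against -1.22 to -0.88), whose surroundings on the array are described above, Dhrs3 on untreated array 3 (-2.23 against -0.96 to -0.84) and Crabp2 on untreated array 3 (1.97 against 2.65 to 2.70). On the same untreated array 3, Aldh1a1 was high (-2.97 against -5.09 to -4.78). Adh4 was high on untreated array 1 (-1.20 against -1.50 to -1.46) and Rlbp1 low on RA-treated array 4 (-3.03 against -2.20 to -2.05). RA-treated array 2 stood apart for Ttr (-1.40 against 0.15 to 0.22) and for Rbp7 (-1.25 against -2.44 to -2.40).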

How the results depend on the processing

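The 7 members called higher kept their call and direction under every alternative run and without any single array, and their lowest log2 fold change was 3.04 (Crabp1). Aldh1a2 was called under 2 of the alternatives, with normexp (adjusted p = 0.0144) and with the replicate block (adjusted p = 0.0252), and then 8 members were called. Both kept its spot on untreated array 2, which lies among displaced spots. Without that array, in the main setting, its log2 fold change was 1.93 (limma adjusted p = 0.0880). The replicate block changed no other call among the 9 members and the 9 further genes it was run for. Fold changes of Cyp26a1, Cyp26b1 and Stra6 were over 1.5 times smaller with normexp, normexp with quantile normalization and the authors' values, with log2 fold changes of 4.68, 4.81 and 4.79 against 6.09 for Cyp26a1, 4.32, 4.48 and 4.46 against 5.23 for Cyp26b1, and 3.09, 3.21 and 3.20 against 3.94 for Stra6. These settings gave 2.60, 2.65 and 2.64 against 3.61 for Aldh1a2, and normexp gave 1.15 against 1.83 for Aldh1a3. The same 3 settings moved Ttr from 6.54 to between 3.48 and 3.59, Aldh1a7 from 8.21 to between 5.65 and 5.82, Rarb from 7.21 to between 5.67 and 5.83, Aldh1a1 from 6.25 to between 4.80 and 4.97 and Adh4 from -3.65 to between -2.26 and -2.10, all still called. Of the further retinoid genes 7 in place of 11 were called lower with normexp and quantile normalization, with the authors' values and with treat. In these settings, in the same order, 10, 10 and 8 in place of 12 were called higher, and the cause was not tested. The difference between Rdh10 and Dhrs3 ran from -0.71 to 0.55 when arrays were left out, turning positive without untreated replicate 3 (0.21), RA-treated replicate 3 (0.55) and RA-treated replicate 4 (0.18). For Cyp26c1, below the limit on all arrays and so without a measured change, the nominal difference of 0.69 became -0.074 with normexp. Cyp26c1 and untreated Ttr, Aldh1a7 and Cyp26a1 were near background, which limits their values. Cyp26b1, Stra6, Rarb and Adh4 were well above background on every array and moved under these settings too, and the reason was not tested.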
